A study of Mus musculus with 42 samples.

Results

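The 45 genes described here are cell cycle genes, chosen by name from the genes of S phase and mitosis and found in the count table of 56953 genes through their Ensembl identifiers. All 45 had a row, all were counted in each of the 42 libraries, and all entered every test. By role they were 3 G1/S cyclins and kinases, 10 replication licensing and helicase genes, 5 genes of nucleotide supply and the replication fork, 3 transcription factors, 7 G2/M cyclins and kinases, 9 genes of chromosomes, kinetochores and the spindle checkpoint, 5 of the spindle and cytokinesis, 2 of mitotic exit and 1 inhibitor, so that 18 stood for S phase and 23 for mitosis. The comparison of both sides asks whether the transcripts of dividing cells are spread equally over the left and right heart fields while the heart tube is looping.

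RNA was sequenced from the left and the right side of the microdissected heart field of 21 mouse embryos at E8.5i, a substage of embryonic day 8.5, after removal of the heart tube, the head and the back. Wild-type embryos with rightward heart looping gave 5 pairs of samples (4 males and 1 female). Embryos homozygous for the Ccdc40 lnks allele, a chemically induced nonsense mutation in a gene that motile cilia need to beat, gave 11 pairs with rightward looping (6 males and 5 females) and 5 pairs with inverted looping (3 males and 2 females). The groups are therefore set by genotype and by the direction of the heart loop, not by laterality cluster. The study sorted these embryos further by their expression asymmetry, and its situs solitus and heterotaxy mutants both looped rightward. The labels do not give that split, so the mutants with rightward looping are a mixture of both classes in every value below. The labels give no treatment, and every embryo was its own replicate. Total counts lay between 36073684 and 62970327 per library (median 43458644), and the mean count of a cell cycle gene was between 309.4 (E2f1) and 52115 (Rrm2), the lowest count of any of them in any library being 190. Ccdc40 itself was between 15.2 and 26.5 CPM (counts scaled to the size of the library) in wild-type libraries, between 8.83 and 14.6 in mutants with rightward looping and between 9.99 and 14.8 in mutants with inverted looping, so wild types and mutants did not overlap. The summed level of 10 second heart field genes was between 292 and 708 CPM, and none of the 10 was at 0 in any library.

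A cell that commits to division first loads the MCM helicase onto replication origins, then fires it with cyclin E and CDK2 and copies its DNA with the help of PCNA and the enzymes that make deoxynucleotides. It later builds cyclin B and CDK1 activity, aligns its chromosomes under the control of the Aurora and Polo kinases and the BUB checkpoint, and leaves mitosis when the anaphase-promoting complex, with its activator CDC20, destroys cyclin B. Most of these genes are transcribed only in cycling cells. The E2F factors, held back by RB and related pocket proteins, switch on many S phase genes, whereas many mitosis genes are read through a CHR element and CCAAT boxes, which are bound by the DREAM and MYBL2-FOXM1 complexes and by NF-Y. Second heart field progenitors divide quickly and slow down when they join the heart tube and turn on muscle genes. CDKN1C, also named p57, is an inhibitor of cyclin-dependent kinases that accompanies exit from the cycle.

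RefSeq promoter windows (build GRCm38.p6, 250 bases before to 50 after a transcription start) were at hand for 36 of the 45 genes, without Ccna2, Mcm4, Gmnn, Foxm1, Aurkb, Gins2, Tpx2, Ccne2 and Cdkn1c. Both strands were searched for 4 E2F words (TTTCCCGC, TTTCGCGC, TTTGCCGC and TTTGGCGC, which can overlap each other), for the CHR words TTTGAA and TTCGAA and for CCAAT. An E2F word stood in 6 of 14 S phase promoters (42.9%) and 1 of 20 mitosis promoters (5%), against 2.6% of the 27025 genes with a window. A CHR word stood in 16 of 20 mitosis promoters (80%) and 3 of 14 S phase promoters (21.4%), against 21.7% of all genes. CCAAT stood in 17 of 20 mitosis promoters (85%) and 10 of 14 S phase promoters (71.4%), against 41.1% of all genes. These are matches of letters and not sites of measured binding. The bases just before the start of 4 genes are shown to contrast the classes and to give the promoters of genes named in the inverted mutants: Mcm6 and Pcna for S phase, Ccnb2 and Bub1 for mitosis. All 4 genes lie on the minus strand and the sequences are written 5′ to 3′ along the gene, in the GRCm38.p6 coordinates chr1:128359706-128359905, chr2:132253181-132253337, chr9:70421555-70421754 and chr2:127831860-127832059. They lie upstream of the first exon and outside every RefSeq gene, and the Pcna stretch is 157 bases because the bases farther upstream belong to Cds2. Capitals mark the searched words, on either strand (ATTGG is CCAAT on the other strand).
Mcm6: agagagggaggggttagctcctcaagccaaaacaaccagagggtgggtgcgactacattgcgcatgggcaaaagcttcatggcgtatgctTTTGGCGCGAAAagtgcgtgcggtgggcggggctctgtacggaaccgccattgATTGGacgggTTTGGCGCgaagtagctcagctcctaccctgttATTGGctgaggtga
Pcna: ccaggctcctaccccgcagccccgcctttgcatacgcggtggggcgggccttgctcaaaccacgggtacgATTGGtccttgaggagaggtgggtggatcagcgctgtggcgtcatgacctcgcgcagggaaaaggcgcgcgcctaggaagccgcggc
Ccnb2: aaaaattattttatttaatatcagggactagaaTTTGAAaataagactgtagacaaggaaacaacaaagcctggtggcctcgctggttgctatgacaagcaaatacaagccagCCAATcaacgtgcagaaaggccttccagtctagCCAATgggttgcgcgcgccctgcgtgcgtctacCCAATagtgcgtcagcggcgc
Bub1: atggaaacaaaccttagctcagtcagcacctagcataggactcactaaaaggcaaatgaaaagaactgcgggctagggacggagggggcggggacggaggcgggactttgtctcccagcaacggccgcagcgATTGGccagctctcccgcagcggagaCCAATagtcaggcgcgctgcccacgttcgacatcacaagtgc
Mcm6 held 3 E2F matches, 2 of them overlapping, and no CHR word, Ccnb2 held 1 CHR word and 3 CCAAT boxes in the bases shown, Bub1 held 2 CCAAT boxes and a CHR word outside the bases shown, and Pcna held 1 CCAAT box and no match to the E2F words in this window.

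All levels below are CPM over TMM-scaled library sizes, and levels of different genes are compared only after division by the length of the canonical transcript, as CPM per kilobase. On that scale Rrm2, the small subunit of ribonucleotide reductase, had the highest mean level over the 42 libraries (448 ± 77.7 SD), followed by Ube2c, a ubiquitin-conjugating enzyme of mitotic exit (297 ± 23.0), and Birc5, the survivin subunit of the chromosomal passenger complex (234 ± 11.6). The centromeric histone Cenpa followed at 222 ± 10.0, cyclin B1 (Ccnb1) at 208 ± 14.6 and the helicase subunit Mcm6 at 196 ± 16.8. Rrm2 was above Ube2c in 42 of 42 libraries and Ube2c above Birc5 in 42 of 42, but the order of neighbours was less fixed farther down, as Mcm6 was above Cdca8 in 20 of 42 libraries and Mcm5 above Pcna in 22 of 42. The proliferation marker Mki67 was at 18.5 ± 1.55 and lay below every other S phase or mitosis gene. The lowest levels were those of the transcription factors, with Mybl2 at 8.56 ± 1.97, Foxm1 at 6.03 ± 0.619 and E2f1 at 2.52 ± 0.489. The inhibitor Cdkn1c stood at 28.2 ± 10.2, rank 36 of the 45.

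**Figure D1:**
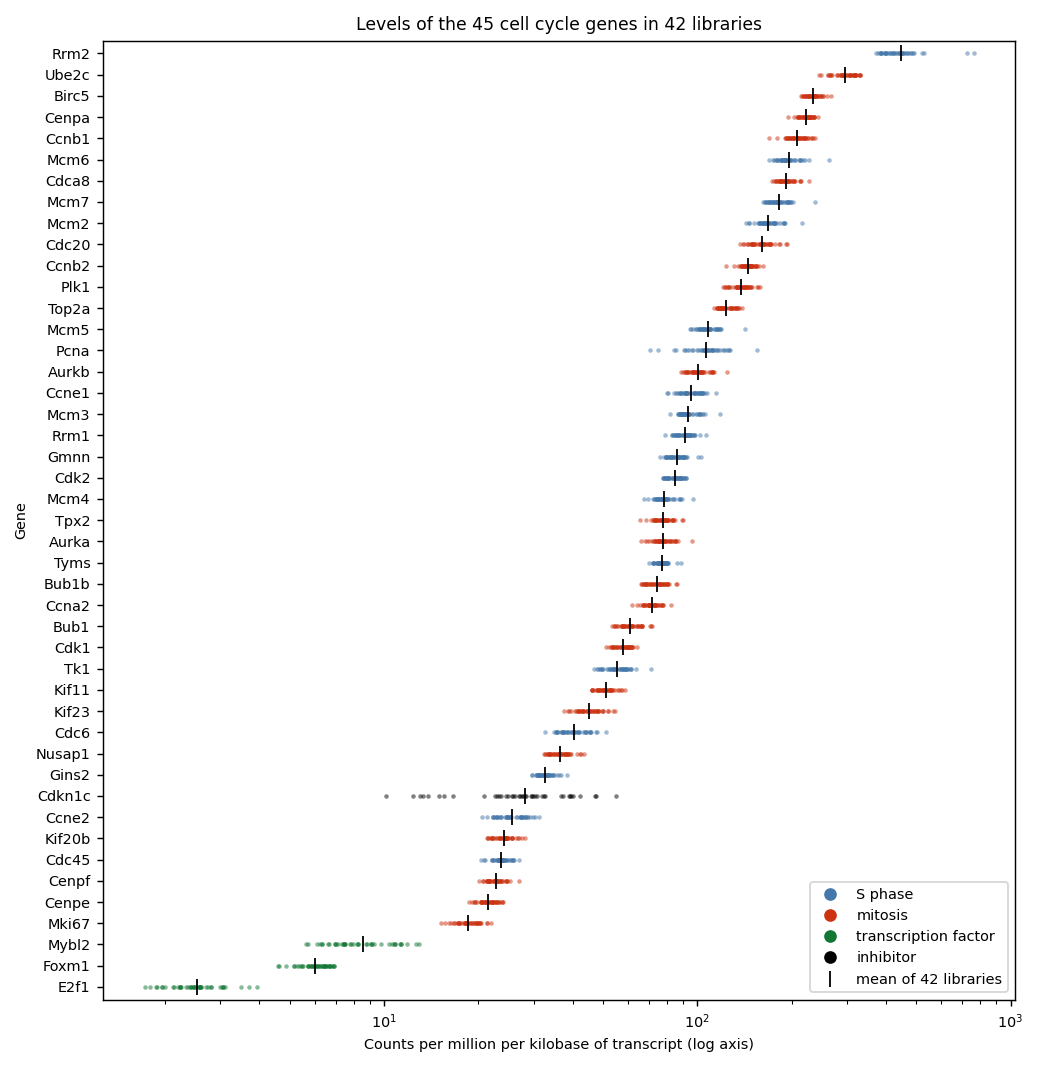
Level of each of the 45 cell cycle genes (vertical axis, ordered by mean) in the 42 libraries, in CPM per kilobase of transcript on a log axis, with 1 point per library and a bar at the mean of 42 libraries. Rrm2 is highest at a mean of 448, the 3 transcription factors are lowest at means from 2.52 to 8.56, and the points of Cdkn1c are the most widely spread.

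Most of the genes varied little between libraries. The coefficient of variation of CPM over the 42 libraries had a median of 7.3% and was lowest for Cenpa, at 4.5%. Cdkn1c was the most variable at 36.1%, with 19.6 CPM in its lowest library and 106 CPM in its highest, a ratio of 5.41. Mybl2 varied by 23.0%, E2f1 by 19.4%, Rrm2 by 17.4% and Pcna by 14.0%. The spread of Rrm2 came from 1 embryo, a mutant with rightward looping (embryo 15_5), whose left and right sides held 1900 and 2005 CPM, while the other 40 libraries lay between 976 and 1392 CPM. Pcna, the sliding clamp of the replication fork, was lowest in both sides of another mutant with rightward looping (embryo 1_6), at 114 and 107 CPM. The spread of Cdkn1c and Mybl2, in contrast, lay mostly within embryos. Over 21 embryos the SD of right over left was 0.966 for Cdkn1c and 0.535 for Mybl2 on the log2 scale, while the SD between embryo means was 0.303 and 0.191. Over the 45 genes the median SD of right over left was 0.12 and the median SD between embryo means was 0.0792.

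In wild types, no cell cycle gene passed the test between the right and the left heart field. By edgeR's quasi-likelihood test with the embryo as block, none of the 45 genes passed an adjusted p under 0.05 and none had an unadjusted p under 0.05, beside 0% and 2.76% of the 23182 genes tested. DESeq2 called none of the 45 either, beside 0.082% of all genes. The median log2 fold change of right over left was 0.01 over the 45 genes, 0.01 over the S phase genes and 0.02 over the mitosis genes, against 0.00 over all genes, and 30 of the 45 lay above 0. The smallest p belonged to Mybl2 (log2 fold change -0.24 ± 0.15 SE), the kinetochore protein gene Cenpf (0.08 ± 0.05) and the checkpoint kinase gene Bub1 (0.07 ± 0.07). By the exact two-sided sign-flip test over 5 embryos, which cannot give less than 0.0625, they had p = 0.312, 0.125 and 0.375. Without embryo 10_1 their fold changes were -0.05, 0.04 and 0.02. For 32 of the 45 genes the 95% confidence interval of right over left lay within ±0.2 on the log2 scale. The intervals of the other 13 reached past that band on at least 1 side, and the widest was that of Cdkn1c, from -1.34 to 0.65.

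The 5 wild-type embryos did not share a direction. The median log2 ratio of the 45 genes was -0.03 in embryo 7_1, 0.04 in 8_1, 0.19 in 10_1, -0.02 in 17_7 and -0.11 in 22_4, while the median over all genes stayed between 0.00 and 0.02. In embryo 10_1, 41 of the 45 genes were higher on the right, and in embryo 22_4, 4 were. Ccnb1 had log2 ratios of -0.03, -0.02, 0.19, 0.00 and -0.10 in these embryos, in the same order. Cdk1, the mitotic kinase, had 0.03, 0.01, 0.16, -0.02 and -0.11, and Mki67 had 0.08, 0.00, 0.10, -0.04 and 0.05. Embryo 10_1 was thus the highest for both Ccnb1 and Cdk1. The other 4 were all lower on the right for Ccnb1, from -0.10 to just below 0, and lay on both sides of 0 for Cdk1.

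The S phase genes had a similar spread. Mcm2, a subunit of the replicative helicase, had log2 ratios of -0.07, 0.00, 0.20, 0.21 and -0.27, and Mcm5, another subunit, had -0.03, 0.02, 0.33, 0.10 and -0.18. Rrm2 had 0.04, -0.06, 0.14, 0.01 and -0.27. Ccne1, encoding cyclin E1, had 0.01, 0.17, 0.15, 0.10 and -0.18, and was higher on the right in 4 of 5 embryos. Its kinase Cdk2 had -0.09, 0.04, -0.05, 0.01 and -0.01, the narrowest range among these. The origin licensing factor Cdc6 had -0.05, -0.02, 0.16, 0.13 and -0.24, and the licensing inhibitor Gmnn had -0.05, -0.04, 0.33, -0.04 and -0.14.

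Among the mitosis genes of wild types, Top2a, the topoisomerase that untangles sister chromatids, had log2 ratios of -0.16, 0.06, 0.18, -0.03 and -0.04. The Polo kinase gene Plk1 had 0.06, 0.04, 0.23, 0.07 and -0.19, the Aurora kinase gene Aurkb had -0.01, 0.10, 0.37, -0.02 and -0.13, and Cdc20 had -0.19, 0.19, 0.38, -0.14 and -0.11. Embryo 10_1 was again the highest for each. The transcription factors E2f1 and Foxm1 had ratios of -0.09, 0.17, 0.80, -0.22 and -0.05, and of 0.12, 0.06, 0.15, -0.17 and -0.01. Mybl2 had -0.01, -0.08, -0.97, -0.22 and 0.13, and here embryo 10_1 was the lowest.

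In mutants with rightward looping no cell cycle gene passed either, and the intervals were tighter. None of the 45 genes passed an adjusted p under 0.05 with edgeR, none had an unadjusted p under 0.05, and DESeq2 called none, beside 0.0263%, 3.59% and 0.136% of the 22795 genes tested. The median log2 fold change of right over left was 0.00 over the 45 genes, with 24 above 0, and the 45 values lay between -0.03 (Tk1, thymidine kinase) and 0.12 (Mybl2). For 43 of the 45 genes the 95% interval lay within ±0.2, the exceptions being Mybl2 and Cdkn1c, and the median distance from estimate to interval bound was 0.07, against 0.15 in wild types. The smallest p belonged to Ccne1 (0.05 ± 0.03 SE, higher on the right in 8 of 11 embryos, exact sign-flip p = 0.13), Rrm2 (0.04 ± 0.03, 7 of 11, exact p = 0.223) and the spindle assembly factor Tpx2 (0.04 ± 0.03, 9 of 11, exact p = 0.211).

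Across the 11 embryos the ratios of single genes ran from the left to the right side of 0. Mki67 lay between -0.16 and 0.13 (median 0.02), Ccnb1 between -0.18 and 0.30 (median -0.02) and Cdk1 between -0.18 and 0.15 (median 0.00). Top2a lay between -0.18 and 0.20 (median -0.03), Plk1 between -0.19 and 0.11 (median -0.02), Aurkb between -0.29 and 0.25 (median 0.01) and Cdc20 between -0.23 and 0.13 (median 0.01). None of these mitosis genes was higher on 1 side in more than 8 of 11 embryos. Of the S phase genes, Mcm2 lay between -0.27 and 0.21 (median 0.00), Mcm5 between -0.27 and 0.15 (median 0.07), Cdc6 between -0.19 and 0.26 (median 0.10) and Cdk2 between -0.13 and 0.18 (median 0.04). Pcna ran from -0.16 to 0.18 (median 0.01), Rrm2 from -0.16 to 0.21 (median 0.08) and Gmnn from -0.10 to 0.06 (median 0.00). E2f1 ran from -0.28 to 0.32 (median 0.01), Foxm1 from -0.15 to 0.49 (median -0.08) and Mybl2 from -0.66 to 0.76 (median 0.25). The sign-flip tests of the 45 genes in this group had no exact p under 0.13.

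With the 16 embryos of both genotypes and rightward looping in 1 fit, edgeR called none of the 45 genes at an adjusted p under 0.05, none had an unadjusted p under 0.05, and DESeq2 called none, beside 0.0352%, 4.33% and 0.237% of the 22749 genes tested. The median log2 fold change was 0.01, with 33 genes above 0, and the intervals of 42 of the 45 genes lay within ±0.2, all but E2f1, Mybl2 and Cdkn1c. The smallest p belonged to Cenpf (0.05 ± 0.02 SE, higher on the right in 11 of 16 embryos), Ccne1 (0.05 ± 0.03, 12 of 16) and E2f1 (0.07 ± 0.07, 8 of 16, and 0.02 without embryo 10_1). None of these values passed the adjusted threshold.

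**Figure D2:**
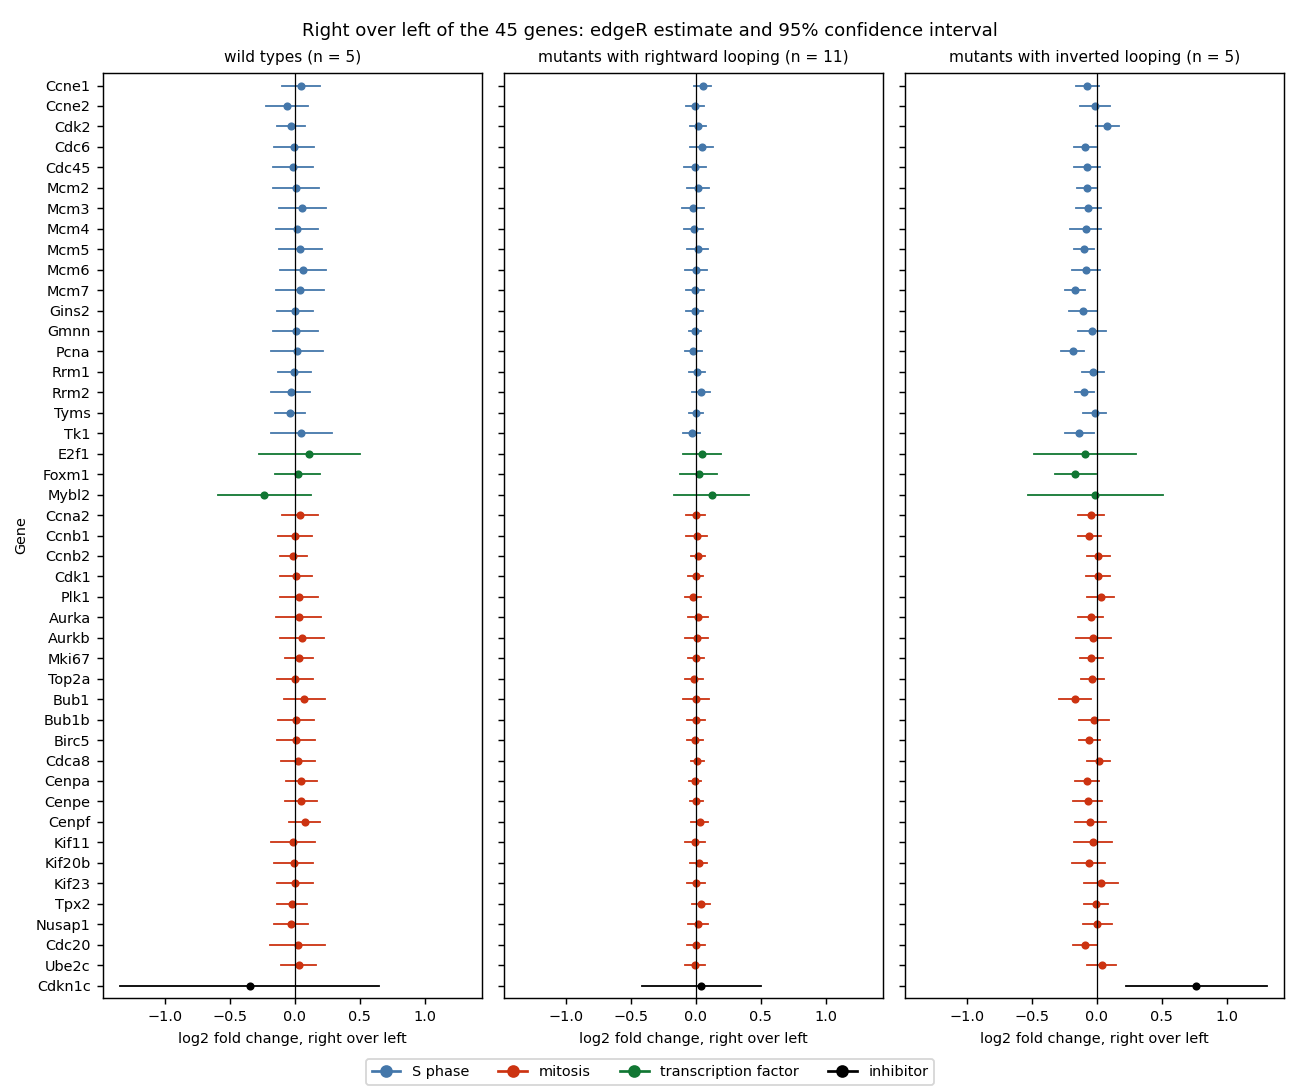
Log2 fold change of right over left for each of the 45 genes (vertical axis, ordered by role) in wild types (n = 5 embryos), mutants with rightward looping (n = 11) and mutants with inverted looping (n = 5). Points are edgeR estimates and lines are 95% confidence intervals. The estimates stand around 0 in the first and second panels, and in the third 36 of the 45 lie below 0 while Cdkn1c stands at 0.77.

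In mutants with inverted looping the values leaned to the left side, those of DNA replication genes among them, without passing the adjusted threshold. With edgeR, none of the 45 genes had an adjusted p under 0.05, beside 2.04% of the 22960 genes tested (468 genes, 395 of them higher on the right). An unadjusted p under 0.05 was reached by 10 of the 45 (22.2%), beside 15.1% of all genes, 9 of them higher on the left. DESeq2 called 3 of the 45 (6.67%), beside 7.64% of all genes, so that share was near the background. They were Mcm7, Pcna and Bub1, with DESeq2 adjusted p of 0.000225, 0.000376 and 0.0169. The median log2 fold change was -0.05 over the 45 genes and 36 of them lay below 0, against -0.01 over all genes, of which 48.8% lay above 0. It was -0.08 over the S phase genes, of which 17 of 18 lay below 0 and 7 had an unadjusted p under 0.05, and -0.04 over the mitosis genes, of which 16 of 23 lay below 0 and 1 had an unadjusted p under 0.05. In the 3 males alone the median was -0.06 over the S phase genes and -0.01 over the mitosis genes, with 15 of 18 and 14 of 23 below 0.

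By role, the median was -0.09 for licensing and helicase genes (10 of 10 below 0), -0.10 for nucleotide supply and the replication fork (5 of 5 below 0) and -0.01 for the G1/S cyclins and Cdk2 (2 of 3 below 0). It was -0.09 for the 3 transcription factors, all below 0. It was -0.03 for the G2/M cyclins and kinases (4 of 7 below 0), -0.05 for chromosome, kinetochore and checkpoint genes (8 of 9 below 0) and -0.01 for the spindle and cytokinesis genes (3 of 5 below 0). The largest of these medians, -0.10, is a right side at 0.934 times the left for Rrm2, which stood at it. The 95% intervals of 35 of the 45 genes lay within ±0.2.

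Mcm7, a subunit of the replicative helicase (GRCm39 chr5:138162844-138170684, minus strand), had the smallest p. In the inverted mutants 2_7, 4_6, 10_3, 18_2 and 32_2 it held 561, 535, 578, 549 and 591 CPM on the left and 515, 480, 515, 486 and 489 CPM on the right. Every left side was above every right side of the group. The log2 fold change was -0.17 ± 0.03 SE (95% interval -0.25 to -0.09), an edgeR adjusted p of 0.052 over all genes, and the exact sign-flip p was 0.0625, the smallest that 5 embryos allow. In mutants with rightward looping the left sides held 490 to 585 CPM (median 532) and the right sides 495 to 577 CPM (median 533), and in wild types 523 to 599 and 505 to 704 CPM, so both sides overlapped there.

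Pcna (GRCm39 chr2:132091082-132095234, minus strand) came next. Its left sides held 156, 146, 163, 194 and 159 CPM and its right sides 139, 128, 148, 171 and 130 CPM in the same embryos. The right was lower than the left in 5 of 5 embryos, although left and right values overlapped between embryos. The log2 fold change was -0.19 ± 0.04 SE (95% interval -0.28 to -0.10, edgeR adjusted p = 0.0567, exact sign-flip p = 0.0625). In wild types Pcna had log2 ratios of -0.06, -0.05, 0.43, -0.14 and -0.08, with 4 of 5 lower on the right as well.

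Bub1, a kinase of the spindle checkpoint (GRCm39 chr2:127643036-127673806, minus strand), was the mitosis gene with the smallest p. It held 209, 199, 246, 220 and 243 CPM on the left and 200, 188, 198, 207 and 191 CPM on the right, and the right was lower in 5 of 5 embryos. The log2 fold change was -0.17 ± 0.05 SE (edgeR adjusted p = 0.175). The size of the difference was uneven, at -0.06, -0.08 and -0.09 in embryos 2_7, 4_6 and 18_2 and at -0.32 and -0.35 in embryos 10_3 and 32_2.

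Cdkn1c (GRCm39 chr7:143012069-143014806, minus strand) went the other way. It held 47.9, 77.1, 25.1, 47.2 and 25.7 CPM on the left and 70.7, 63.2, 75.5, 75.1 and 61.8 CPM on the right of the inverted mutants 2_7, 4_6, 10_3, 18_2 and 32_2. The right was higher in 4 of 5 embryos, and the left side of embryo 4_6 was above each of the right sides. The log2 fold change was 0.77 ± 0.24 SE, a ratio of 1.70 (95% interval 0.22 to 1.31 on the log2 scale, edgeR adjusted p = 0.171, exact sign-flip p = 0.125). Without embryo 4_6 it was 1.03 with an edgeR adjusted p of 0.0486, the only removal of 1 embryo that brought a cell cycle gene past the threshold in this group. In wild types the ratios of Cdkn1c were 0.16, -0.92, -2.21, -0.01 and 1.17, and in mutants with rightward looping they ran from -1.05 to 1.78 (median 0.02), so it was high on either side in single embryos of those groups.

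**Figure D3:**
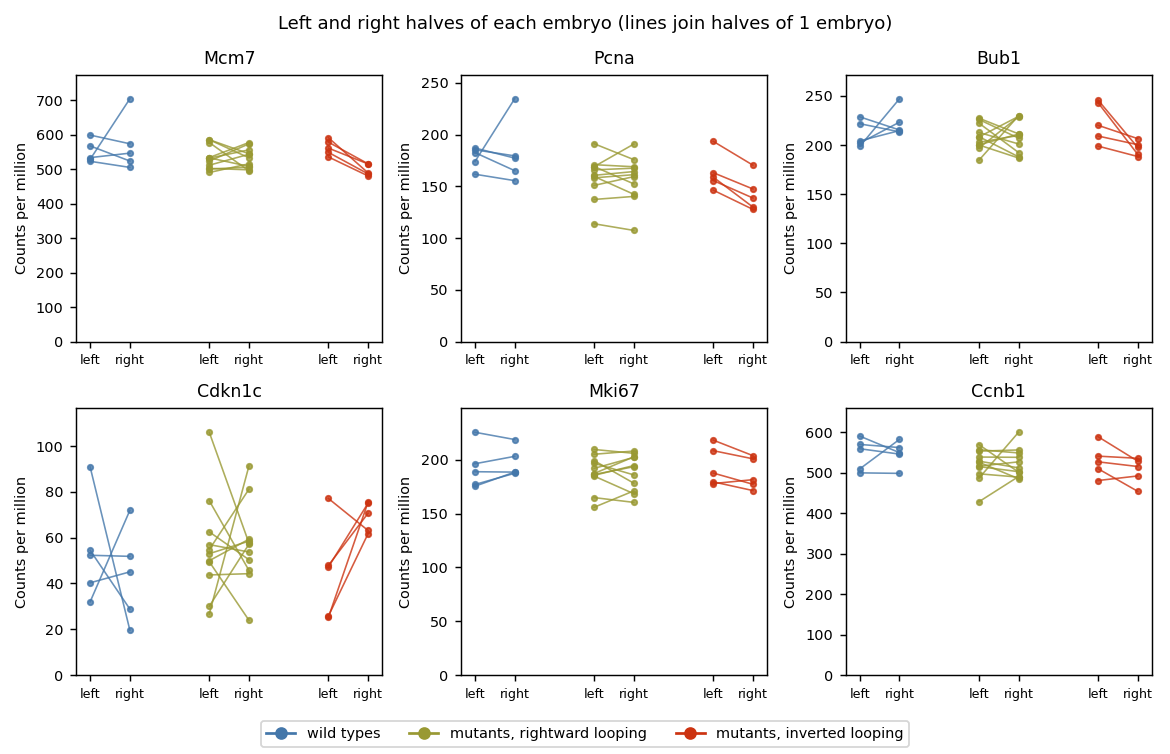
CPM of Mcm7, Pcna, Bub1, Cdkn1c, Mki67 and Ccnb1 (vertical axes from 0) in the left and right side of each embryo, with 1 line per embryo, for wild types (5), mutants that looped rightward (11) and inverted mutants (5). In the inverted mutants each line of Mcm7, Pcna and Bub1 goes down from left to right and 4 of 5 lines of Cdkn1c go up.

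Other S phase genes of the inverted mutants lay closer to 0. Rrm2 had log2 ratios of -0.13, -0.05, -0.09, -0.17 and -0.09 (embryos 2_7, 4_6, 10_3, 18_2 and 32_2), Mcm5 had -0.05, -0.07, -0.13, -0.11 and -0.19, Mcm2 had -0.06, -0.07, -0.12, -0.06 and -0.12, and Cdc6 had -0.12, -0.09, -0.07, -0.05 and -0.17. All of them were lower on the right in 5 of 5 embryos, as was Ccne1, with -0.14, -0.06, -0.02, -0.06 and -0.14. Cdk2 was the only S phase gene with a fold change above 0, at 0.06, 0.08, 0.05, 0.18 and -0.01. Gmnn had -0.16, 0.05, -0.05, -0.05 and -0.02. Tk1 (-0.14 ± 0.05 SE), Mcm2 (-0.08 ± 0.03) and Cdc6 (-0.09 ± 0.04) were among the 7 with an unadjusted p under 0.05 and had edgeR adjusted p of 0.24, 0.285 and 0.29.

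The mitosis genes were mixed in direction. Mki67 had log2 ratios of -0.08, -0.07, 0.03, -0.10 and -0.05, Top2a had -0.05, 0.07, -0.10, 0.01 and -0.15, and Ccnb1 had -0.03, 0.03, -0.17, -0.01 and -0.16. Cdk1 had -0.04, 0.14, -0.06, 0.04 and -0.08, Plk1 had -0.01, 0.07, -0.11, 0.17 and -0.02, Aurkb had -0.11, 0.13, -0.22, 0.14 and -0.13, and Cdc20 had -0.11, 0.00, -0.14, -0.04 and -0.23. Embryos 4_6 and 18_2 stood on the right side for Cdk1, Plk1 and Aurkb, and embryos 10_3 and 32_2 on the left. Of the transcription factors, Foxm1, which drives mitosis genes, had -0.01, -0.28, -0.14, -0.33 and -0.12 and a fold change of -0.17 ± 0.07 SE (edgeR adjusted p = 0.317). E2f1 had 0.13, -0.04, 0.36, -0.81 and -0.15, and Mybl2 had 0.47, -0.78, 0.73, -0.69 and 0.16. Their fold changes were -0.09 and -0.01, with wide intervals (-0.48 to 0.30 and -0.53 to 0.51).

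Markers of other cell types were also unequal between the sides of the inverted mutants. Of all genes tested in this comparison, 2.04% were called. Of 10 heart muscle genes 8 were called higher on the right, with a median log2 fold change of 1.06, and 3 of 6 neural tube genes were called higher on the left, with a median of -1.90. The summed level of the heart muscle genes ran from 1447 to 2765 CPM in left sides and from 2730 to 5733 CPM in right sides, and that of the neural tube genes from 54.1 to 107 and from 9.91 to 65.8 CPM. None of these heart muscle and neural tube genes was at 0 in a library of this group. Of the lists below, Nkx2-1 of foregut endoderm and Apoa4 of yolk sac endoderm were at 0 in at least 1 library. Of 10 second heart field genes 3 were called higher on the right (median 0.32), 1 of 8 foregut endoderm genes was called higher on the right (median 0.30), and 1 of 7 genes of paraxial mesoderm and somites was called higher on the left (median -0.86). No gene of primitive blood, endothelium or yolk sac endoderm was called. The part of these differences in the values of the cell cycle genes was not tested. In such bulk samples, fewer dividing cells and less transcript per cell cannot be told apart.

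In embryos with rightward looping, a higher ratio of heart muscle genes went with a lower ratio of cell cycle genes. Wild-type embryo 10_1, with the highest cell cycle ratio (0.19), had a log2 ratio of summed heart muscle genes of -1.66, and embryo 22_4, with the lowest (-0.11), had 1.02. Among mutants with rightward looping, embryo 2_2 had a muscle ratio of -1.78 and a median cell cycle ratio of 0.09, and embryo 19_4 had 1.38 and -0.12. The inverted mutants had muscle ratios of 0.67, 1.08, 0.92, 1.21 and 1.42, and S phase medians of -0.12, -0.03, -0.12, -0.05 and -0.15, all below 0. The muscle-rich right sides of embryos 22_4 and 19_4, of rightward looping, had S phase medians of -0.14 and -0.17, the first inside the range of the inverted mutants and the second below it. The order was not strict, since wild-type embryo 17_7 had a muscle ratio of 0.62 with an S phase median of 0.04. Mutant 32_3, with rightward looping, had a muscle ratio of -0.01 and an S phase median of -0.12, with 0 of 18 S phase genes higher on the right. In order of rising muscle ratio, the inverted mutants 2_7, 10_3, 4_6, 18_2 and 32_2 had medians over the 45 genes of -0.05, -0.12, 0.01, -0.02 and -0.14, so the embryo with the highest muscle ratio had the lowest median and the others were in no such order.

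Over the 21 embryos the median cell cycle ratio and the summed muscle ratio had a Pearson r of -0.81 and a Spearman rho of -0.76, and r was -0.72 without the 2 embryos farthest from the median muscle ratio. Over the 16 embryos with rightward looping r was -0.83 (-0.75 without 2 embryos). Within the 11 mutants of this looping r was -0.71, but -0.43 without embryos 2_2 and 19_4, so in that group it rested largely on these. For the S phase genes r was -0.79 over 21 embryos, for the mitosis genes -0.70, and for Cdkn1c 0.79. Within the 11 mutants with rightward looping these were -0.70, -0.63 and 0.69, and without embryos 2_2 and 19_4 they were -0.24, -0.38 and 0.08. With the summed neural tube genes, r over 21 embryos was 0.71 for the 45 genes, 0.68 for S phase, 0.61 for mitosis and -0.67 for Cdkn1c, and within the 11 mutants it was 0.62, 0.52, 0.54 and -0.59. Without the 2 embryos farthest from the median neural tube ratio, the values within the 11 mutants were 0.68, 0.63, 0.55 and -0.49, and that of the 45 genes over the 16 embryos with rightward looping was 0.82. These 8 relations, each in 3 sets of embryos, were looked at after the embryo values were seen, both quantities of a point come from the same pair of libraries and share its scaling, and they are given as a description with no test.

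**Figure D4:**
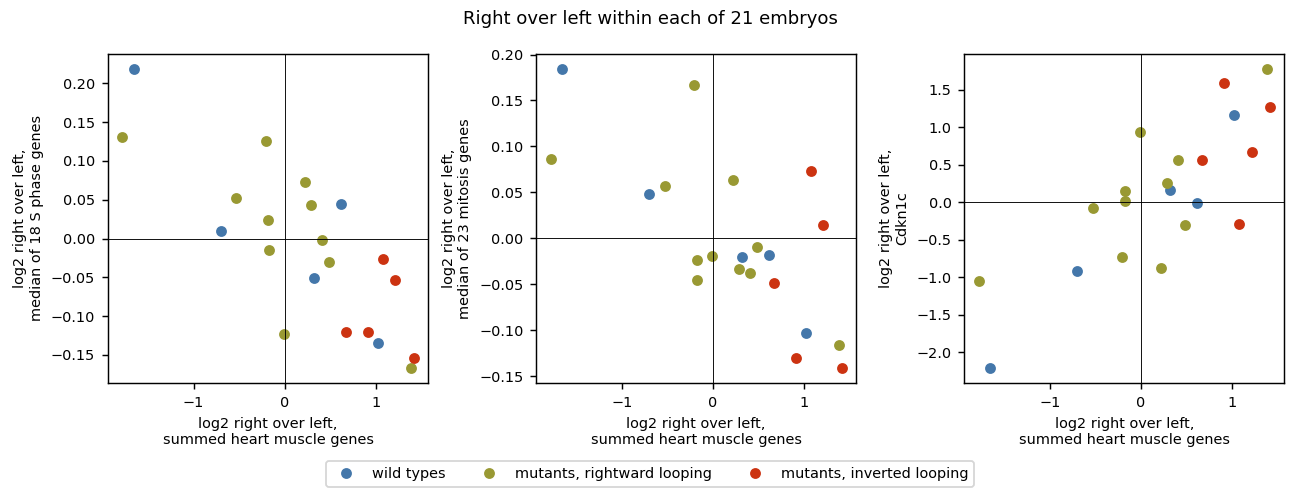
Log2 ratio of right over left in each of 21 embryos for the median of 18 S phase genes, the median of 23 mitosis genes and Cdkn1c (vertical axes), against the log2 ratio of summed heart muscle genes (horizontal axis), colored by group. The S phase and mitosis medians decline from left to right of the panels (r of -0.79 and -0.70) and Cdkn1c climbs (r of 0.79), and the 5 inverted mutants all lie at muscle ratios above 0.

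The asymmetry of the inverted mutants was compared with that of the other groups by the interaction of side and group. Against wild types, none of the 45 genes passed an adjusted p under 0.05 with edgeR, beside 0.513% of the 26335 genes tested, 6 of 45 (13.3%) had an unadjusted p under 0.05, beside 13.6%, and DESeq2 called none, beside 3.36%. The median difference of the log2 ratios was -0.09 over the 45 genes and -0.02 over all genes. The smallest p belonged to Cenpa (-0.14 ± 0.05 SE), Mcm7 (-0.22 ± 0.08) and Bub1 (-0.26 ± 0.10), with edgeR adjusted p of 0.221, 0.222 and 0.234. Without wild-type embryo 10_1 the median difference was -0.03 and these 3 genes had -0.12, -0.13 and -0.20.

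Against mutants with rightward looping, none of the 45 passed with edgeR, beside 0.311% of genes, 6 of 45 (13.3%) had an unadjusted p under 0.05, beside 10.5%, and DESeq2 called none, beside 1.62%. The median difference was -0.07, and the smallest p belonged to Rrm2 (-0.15 ± 0.06), Pcna (-0.18 ± 0.07) and Mcm7 (-0.17 ± 0.07), with edgeR adjusted p of 0.351, 0.358 and 0.364. Between mutants with rightward looping and wild types, edgeR called no gene at all (0%), DESeq2 none (0%), and 3.04% of genes but none of the 45 had an unadjusted p under 0.05. The median difference was -0.02 there, and the smallest p belonged to Cenpa (-0.06 ± 0.04 SE), Mybl2 (0.35 ± 0.27) and Rrm2 (0.07 ± 0.06), which without embryo 10_1 had -0.04, 0.17 and 0.11. These comparisons share samples, each group entering 2 of the 3. A left-leaning S phase value in inverted mutants beside values near 0 in the other groups is therefore not a shown difference between groups.

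The level of the cell cycle genes on either side was also compared between groups, with sex as a covariate. In left sides, mutants with rightward looping had a median log2 fold change of -0.06 over wild types, with 40 of the 45 genes below 0 and 18 of 18 S phase genes. The median was -0.04 without wild-type embryo 22_4. With scaling by library size alone it was -0.03 while the median of all genes was 0.03, against 0.00 in the TMM fit. With edgeR none of the 45 passed an adjusted p under 0.05, beside 0.0242% of 24838 genes, 5 (11.1%) had an unadjusted p under 0.05, beside 5.02%, and DESeq2 called none, beside 0.0805%. The 5 were mitosis genes, led by Tpx2 (-0.14 ± 0.05 SE, a spindle factor), Aurka (-0.11 ± 0.05, an Aurora kinase) and Kif11 (-0.10 ± 0.04, a spindle motor). In right sides the same comparison had a median of -0.06 with 41 of the 45 below 0 (median -0.02 without wild-type embryo 10_1), none passed with edgeR (0.0121% of 24859 genes), 3 (6.67%) had an unadjusted p under 0.05, beside 3.28%, and DESeq2 called none, beside 0.0241%. Cdca8 (-0.11 ± 0.05), Plk1 (-0.11 ± 0.05) and Gmnn (-0.10 ± 0.05) had the smallest p. Without embryo 10_1 Cdca8 had -0.06 and Gmnn -0.07.

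Inverted mutants had left sides with a median of 0.06 over those of mutants with rightward looping, with 40 of the 45 genes above 0, and of -0.01 over those of wild types. The first median was 0.03 without embryo 10_3 and 0.03 without embryo 18_2, and the second lay on either side of 0 over the embryos left out, from -0.04 to 0.01. No cell cycle gene passed with edgeR in either (0.0121% and 0.0282% of all genes) or with DESeq2 (0.338% and 0.318%), and 3 (6.67%) and 1 (2.22%) had an unadjusted p under 0.05, beside 7.89% and 7.15%. Gins2 (0.10 ± 0.04 SE) and Cdc45 (0.10 ± 0.04), both partners of the MCM helicase, and Cenpa (0.06 ± 0.03) had the smallest p in the first, and Cenpa (0.08 ± 0.04), Tpx2 (-0.10 ± 0.05) and Gmnn (-0.09 ± 0.06) in the second.

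Their right sides had a median of -0.03 over mutants with rightward looping (between -0.04 and -0.01 with 1 embryo left out) and of -0.09 over wild types, with 40 of the 45 genes below 0 in the latter. Again none passed with edgeR (0.00805% and 0%) or DESeq2 (0.0644% and 0.0684%), and none and 6 (13.3%) had an unadjusted p under 0.05, beside 4.26% and 5.93%. Mcm7 (-0.10 ± 0.06), Bub1 (-0.09 ± 0.05) and Rrm2 (-0.18 ± 0.12) led the first, and without mutant 15_5 Rrm2 had -0.08. Bub1 (-0.17 ± 0.06), Mcm7 (-0.19 ± 0.07) and Pcna (-0.33 ± 0.12) led the second, in which the highest wild-type right side of Pcna and Mcm7, 235 and 704 CPM, was that of embryo 10_1. Without it the median was -0.05 and the 3 genes had -0.13, -0.11 and -0.23.

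Other genes of the cycle were taken from 4 wider lists. In inverted mutants, 43 further S phase genes had a median log2 ratio of right over left of -0.11, with 39 below 0 and 17 (39.5%) at an unadjusted p under 0.05, 16 of them higher on the left, and 46 further mitosis genes had a median of -0.04, with 32 below 0 and 7 (15.2%) at that p, against 15.1% of all genes. The 15 pocket protein and E2F genes had a median of -0.07 and 16 other inhibitors of the cycle a median of 0.18, with 4 of the 16 at an unadjusted p under 0.05, all higher on the right. With edgeR none of these genes passed the adjusted threshold, beside 2.04% of all genes tested. The calls of DESeq2 for these lists are not given here. In wild types the medians of the further S phase and mitosis genes were 0.02 and 0.01 and in mutants with rightward looping 0.00 and 0.01. No gene of these 4 lists was called with edgeR in either group, beside 0% and 0.0263% of all genes.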

How the data were processed

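Poly(A) RNA of 42 heart field samples was sequenced at E8.5i. Per the labels, the authors trimmed adapters, removed duplicates, aligned reads to GRCm39 with STAR and deposited raw counts per Ensembl gene from featureCounts (Subread 2.0.6). Strandedness and the treatment of multimapping reads are not given in the sources used here, so overlapping genes may share counts. Groups came from genotype and looping in the labels, and 56310 of 56953 genes were named with GENCODE. Here, R 4.3.3 with edgeR 4.0.16 was used on the counts: TMM scaling, filterByExpr (minimum count 5, total 10), quasi-likelihood tests with embryo as block for right over left and for its interaction with group, and sex as covariate for levels. Adjusted p-values are Benjamini-Hochberg over all genes tested, with a threshold of 0.05. Single ratios used log2 CPM with a prior count of 2 and an exact two-sided sign-flip test. DESeq2 1.42.0, other scalings, no filter, no block, no sex, males alone and each embryo left out were alternatives. Left and right samples of an embryo are paired by the labels, and over 2000 variable genes their deviations from group means correlated above 0.1 in 19 of 21 pairs (median 0.31). No 2 of the 861 pairs of libraries agreed within sampling noise. Fits were tested on simulated data. Values per embryo are given for 19 preset genes in wild types and in inverted mutants. In mutants with rightward looping these genes have a range and a median, and Ccne1 a fold change and a count of embryos. For each test the 3 members with the smallest p are named where fewer pass. Members and lists were chosen with earlier results of these data known.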

Additional observations from a re-analysis of the deposited data

Results flagged for a closer look

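Among 64 sets of 5 right over left ratios (29 named genes and 3 medians, in wild types and in inverted mutants), 5 had 1 embryo far from the other 4 by Dixon's test at the 95% level, where chance flags about 1 set in 20. In wild types, embryo 10_1 stood far above the others for Pcna (0.43), Mcm7 (0.41) and Gmnn (0.33), on the log2 scale. In inverted mutants, embryo 4_6 stood far above the others for Cdc45 (0.0069) and Cenpf (0.18). Embryo 10_1 also had the lowest ratio of summed heart muscle genes among wild types, -1.66, and the part of that difference was not tested. Without embryo 10_1 the median log2 ratio of the 45 genes in wild types was -0.03 and no gene of the 45 was called.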

How the results depend on the processing

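In mutants with inverted looping, the count of cell cycle genes past the threshold was 0 with edgeR and 3 with DESeq2 (Mcm7, Pcna and Bub1), 2 with scaling by library size alone (Mcm7 and Pcna) and 2 without a filter on low counts (Mcm7 and Cdkn1c). Leaving out 1 embryo gave 0 to 1, the 1 being Cdkn1c without embryo 4_6. The direction was the same in each. The cause of the change was not tested. Of all genes tested in these mutants, 2.04% were called with edgeR and 7.64% with DESeq2. The share over all genes is not given here for the other settings, so their counts of cell cycle genes cannot be set against a background. In the other 12 comparisons the count was 0 under every alternative run. Without the embryo as a replicate block the count was 0 in all 7 comparisons of asymmetry, and the median of the inverted mutants was -0.05, as with the paired fit. No median of the 45 genes moved by more than 1 SD of the embryos' medians under any alternative. Medians close to 0 crossed it under some alternatives, as in wild types without embryo 10_1 (-0.03). The median of the inverted mutants lay between -0.07 and -0.04 over all alternatives. With 5 embryos the exact test cannot pass 0.05, and in wild types the intervals of 13 genes reached past ±0.2 on the log2 scale.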
